A study of Schizosaccharomyces pombe with 36 samples.

Results

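The comparison described here sets stn1-226 rif1 deletion against wild type in fission yeast, Schizosaccharomyces pombe, grown at 25 °C, the permissive temperature of stn1-226. Libraries were chosen by their titles, which gave 8 of the 36 libraries of the series: 4 labelled stn1-226 rif1 deletion and 4 wild type, each as 2 Pol delta and 2 Pol epsilon libraries. The method was polymerase usage sequencing, in which genomic DNA is cut with alkali where a mutant polymerase left ribonucleotides, and fragment ends are counted on each strand in bins of 300 bp. Cells were in log phase in rich medium. The libraries labelled stn1-226 rif1 deletion came from strains MV1338 (cdc6-I591G, Pol delta) and MV1339 (cdc20-M630F, Pol epsilon). Per their labels both carry a deletion of rif1, the temperature-sensitive stn1-226 allele, an rnh201 deletion marked with hphNT1, polymerase alleles flanked by lox sites, leu1-32 and ura4-. The wild type libraries came from strains 856 (cdc6-L591G) and 655 (cdc20-M630F), which are h- with rnh201-RED:kan, ade6-704, leu1-32 and ura4-D18. All strains thus share a defect in ribonucleotide removal and leu1-32. The marker background, the lox sites and the stated mating type differ along with stn1 and rif1. So does the cdc6 allele of the Pol delta strains as written in the labels (I591G against L591G). Each group and polymerase is 1 strain, and nothing in the labels says that replicates came from separate cultures. The p-values thus cover the spread between libraries, which may be technical.

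At a replication fork the leading strand is mainly the work of DNA polymerase epsilon and the lagging strand that of DNA polymerase delta, so the strand that carries ribonucleotides switches where forks leave an origin. Rif1 brings protein phosphatase PP1 to origins and telomeres, where it opposes the Dbf4-dependent kinase and holds back firing. In fission yeast many dormant and late origins fire early without it. Stn1, with Ten1, binds single-stranded DNA at telomeres and assists the fill-in synthesis of the ends by Pol alpha and primase.

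The labels were set against the data before any comparison. At the rif1 gene (SPAC6F6.17, 2766273 to 2770704 of chromosome I) the libraries labelled stn1-226 rif1 deletion held 1.10 ± 0.12 times the median bin (SD, n = 4), against 1.13 ± 0.08 in wild type. The 4 libraries of rif1 deletion alone at 25 °C held 0.018 times there. Coverage of rif1 therefore goes against the deletion in the label, and each direction given below rests on the label. Over ura4 the libraries labelled stn1-226 rif1 deletion held 0.594 to 1.78 times the median bin. Wild type replicate 1 held 0.005 (Pol delta) and 0.0025 (Pol epsilon) there, but wild type replicate 2 held 1.26 and 0.272 despite its ura4-D18 label. Step calls in Pol epsilon and in the mean of both polymerases, and total ends in Pol delta, are therefore also given without that replicate. Polarity, the difference between polymerases in total ends and the mating-type interval are not given without it in both polymerases at once. Depth ran from 2211932 ends (Pol delta replicate 2 labelled stn1-226 rif1 deletion, median bin 39) to 18846575 ends (Pol delta replicate 1 of the same group). The bin-to-bin pattern of ends pairs replicate 1 labelled stn1-226 rif1 deletion with wild type replicate 2 (r = 0.786 for Pol delta and 0.768 for Pol epsilon) and replicate 2 with wild type replicate 1 (0.670 and 0.709), so differences within these 2 like pairs are given beside the largest rises and falls.

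Matches to the Rif1 consensus sequence are shown first, for 5 of the 12 largest rises, chosen from those that have a match within 1 kb; each stretch is centred on the match and not on the site. Matches were searched on both strands, and capitals mark them. Bases are the plus strand of ASM294v3, 5′ to 3′, from RefSeq. The consensus occurs 57 times in the assembly, and 0.764% of windows of 2 kb hold it. The mug114 match lies within the annotated gene outside its coding part and is shown with short flanks; the others printed are intergenic.
klp3, chrI:4706037-4706156: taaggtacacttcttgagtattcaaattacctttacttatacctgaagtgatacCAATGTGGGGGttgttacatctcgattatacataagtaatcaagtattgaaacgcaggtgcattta
yea4, chrII:1080000-1080119: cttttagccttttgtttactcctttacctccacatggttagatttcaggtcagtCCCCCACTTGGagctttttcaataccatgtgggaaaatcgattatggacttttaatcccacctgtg
dpe2, chrIII:2309718-2309837: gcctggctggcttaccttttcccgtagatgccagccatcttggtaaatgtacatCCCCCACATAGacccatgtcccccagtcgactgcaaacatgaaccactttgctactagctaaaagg
ubc1, chrII:3008758-3008877: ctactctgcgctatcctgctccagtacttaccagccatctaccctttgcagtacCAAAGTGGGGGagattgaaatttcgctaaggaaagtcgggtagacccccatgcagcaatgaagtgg
mug114, chrI:2663745-2663773: aatgaaaggCAATGTGGGGGgatagtggg

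Initiation was measured at each site as a step. Ends that outgoing forks would leave (1 strand on each flank) were divided by ends that incoming forks would leave, over 10 bins to either side, on the log2 scale. A step of 0 means no change of fork direction there. Sites were the 534 local maxima of the step averaged over 32 libraries of 8 conditions, so a place silent in wild type is a site only where a mutant raised it. In the mean of both polymerases 46 sites passed an adjusted p of 0.05 (edgeR quasi-likelihood test with Benjamini-Hochberg adjustment), which is 8.61% of those tested: 34 rose (6.37%) and 12 fell (2.25%) with the stn1-226 rif1 deletion label. Pol delta alone gave 28 rises (5.24%) and 7 falls (1.31%), together 6.55% of sites. Pol epsilon alone gave 2 rises and 0 falls (0.375%), beside klp3 and dpe2. In Pol epsilon 34 sites had an unadjusted p under 0.05, and DESeq2 gave 12 rises and 2 falls. The difference between the polymerases passed at 0 sites in edgeR (8 at an unadjusted p under 0.05) and 0 in DESeq2, so the unequal counts do not show that the polymerases differ. The Pol epsilon calls rest on single libraries: 0 sites passed without replicate 1 of either group and 8 without wild type replicate 2.

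The site beside klp3, which encodes a kinesin, lies on chromosome I at 4706401, 377 bp from the gene. Its Pol delta step was 2.29 and 1.90 in those labelled stn1-226 rif1 deletion, against -0.23 and -0.19 in wild type. Its Pol epsilon step was 2.56 and 1.75, against 0.66 and 0.59 in wild type. Groups did not overlap in either polymerase, and the mean rise was 1.93 log2 (SE 0.19, adjusted p = 1.4e-06 by edgeR). Beside dpe2 (SPCC965.12, chromosome III 2308801) the Pol delta step was 1.76 and 2.05 labelled stn1-226 rif1 deletion and -0.23 and -0.41 in wild type. Its Pol epsilon step was 1.70 and 1.11, against -0.48 and -0.07 in wild type. All 4 wild type values thus lay below 0, and the site rose by 1.95 log2 (SE 0.23, adjusted p = 6.9e-06 by edgeR). In this fit, which has no replicate block, klp3 and dpe2 were the only sites past the test in each polymerase on its own, and with the like pairs as a block 11 sites passed in Pol epsilon.

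The steepest rise was beside SPBC3B8.08 (chromosome II 3379501). There the Pol delta step was 2.50 and 2.84 labelled stn1-226 rif1 deletion, against 0.34 and -0.23 in wild type. The Pol epsilon step was 2.28 and 0.95, against -0.45 and 0.65 in wild type. Groups stood apart although the Pol epsilon replicates spread widely, and the mean rise was 2.06 log2 (SE 0.32, adjusted p = 0.00017 by edgeR). Beside yea4 (chromosome II 1079701) the Pol delta step was 2.43 and 2.96, against 0.47 and -0.13 in wild type. The Pol epsilon step there was 2.27 and 1.57, against -0.13 and 0.79 in wild type, and the rise was again 2.06 log2 (SE 0.28, adjusted p = 4.9e-05 by edgeR). The site beside pas1, which encodes a cyclin (chromosome I 1359601, 1532 bp away), rose by 2.03 log2 (SE 0.40). It was the least even of the group in wild type, with Pol delta steps of 1.03 and -0.33 there, against 2.44 and 2.78 labelled stn1-226 rif1 deletion.

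The other large rises followed the same pattern. The site by mug114, a gene induced in meiosis (chromosome I 2662801), rose by 2.00 log2 with Pol delta steps of 1.86 and 2.53 labelled stn1-226 rif1 deletion, against -0.20 and -0.55 in wild type. By erg1, which encodes squalene epoxidase of ergosterol synthesis (chromosome II 891601), the Pol delta steps were 1.98 and 1.95, against 0.08 and -0.22 in wild type, a rise of 1.73 log2. By ubc1, a ubiquitin-conjugating enzyme (chromosome II 3008401), they were 1.79 and 0.70, against -0.98 and -0.47 in wild type, and the rise was 1.67 log2. These 3 sites stood at 0.08 or below in wild type Pol delta and at 0.70 or above in Pol delta labelled stn1-226 rif1 deletion. Smaller rises were found beside SPAC23H4.05C (1.54 log2), SPAC25A8.03C (1.46), ski7 (1.41) and erf2, a protein palmitoyltransferase subunit (1.41). Those beside SPAC25A8.03C, ski7 and erf2 already had a step in both wild type Pol epsilon libraries, of 0.98 and 1.49, 1.73 and 1.61, and 0.54 and 1.04. The erf2 site also had one in wild type Pol delta, of 1.535 and 0.752. In wild type Pol epsilon replicate 2 the steps by mug114 and erg1 were 0.775 and 0.629, against -0.063 and -0.287 in replicate 1. The 12 largest rises kept their call with each of the 8 libraries left out in turn and without wild type replicate 2 of both polymerases. In the 2 like pairs their median rise was 1.87 log2 (replicate 1 against wild type replicate 2) and 1.63 log2 (replicate 2 against wild type replicate 1), and all 12 rose in both. The 12 were chosen by their change over these same libraries, so a rise in both pairs was favoured by the choice and is a description. Of the 488 sites that did not pass, 309 had the same sign in both pairs.

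**Figure D1:**
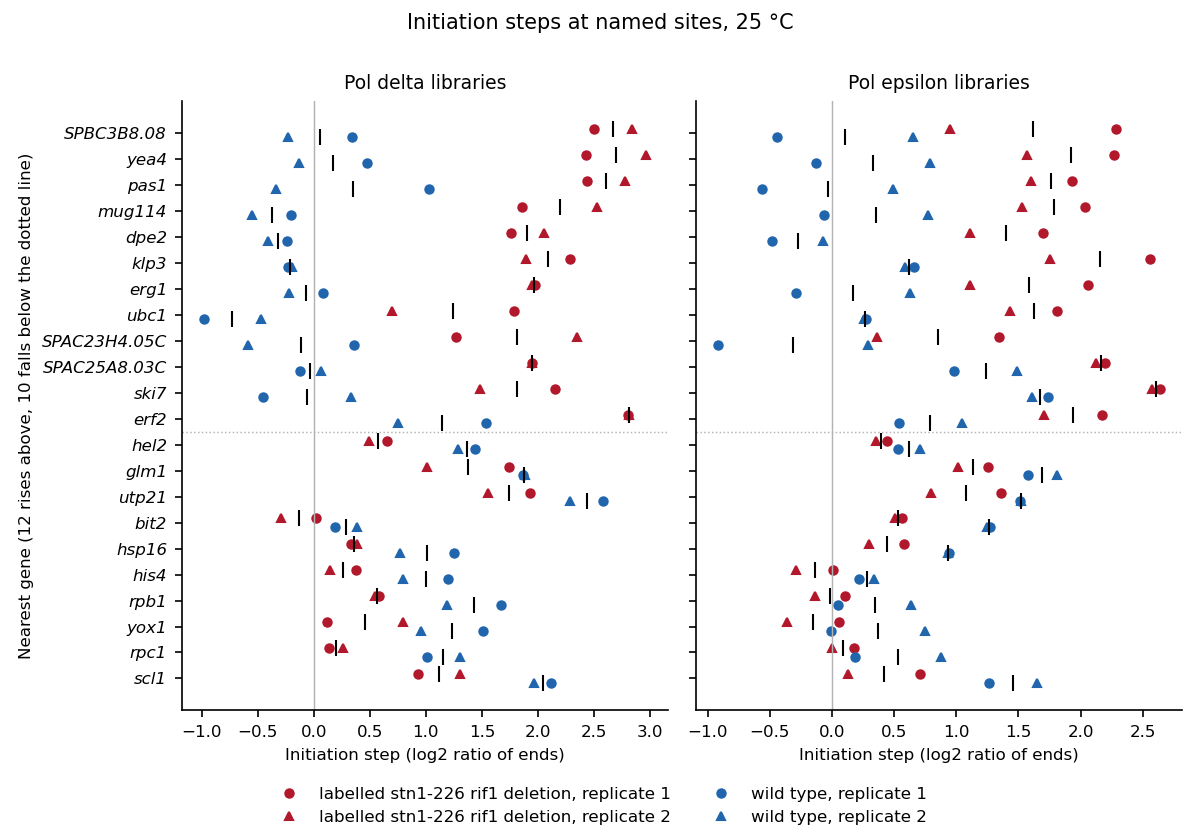
Initiation step (log2 ratio, horizontal axis) at the 12 largest rises and 10 largest falls, by nearest gene, in each Pol delta (left) and Pol epsilon (right) library labelled stn1-226 rif1 deletion (red) and wild type (blue); bars are means of 2 libraries. At all 12 rises the red points lie right of the blue points in both panels, and at the falls they lie left of them in Pol delta. The sites were chosen for their change, so this is a description. Of the 488 sites that did not pass, the groups were apart upward at 47 and downward at 44 in Pol delta. In Pol epsilon they were apart upward at 55 and downward at 43.

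Across the 34 sites that rose, the median step over 4 libraries was 1.72 labelled stn1-226 rif1 deletion and 0.57 in wild type. Across the 12 largest it was 2.09 labelled stn1-226 rif1 deletion and 0.12 in wild type, while the median of all 534 sites was 1.19 labelled stn1-226 rif1 deletion and 1.05 in wild type. In wild type 9 of the 12 stood below 0.5. At the same 12 sites the median step was 1.91 in rif1 deletion alone and 0.23 in stn1-226 alone, both at 25 °C. The 10 largest falls had median steps of 0.34 labelled stn1-226 rif1 deletion, 0.34 in rif1 deletion alone, 0.74 in stn1-226 alone and 0.93 in wild type. Sites called in this comparison thus stood near the levels of the single rif1 deletion; these levels describe sites chosen for their change and were not tested. Other named rises were beside coa6, a cytochrome oxidase assembly factor (1.38 log2), nif1 (1.18) and cuf1, the copper-responsive transcription factor (1.09). Without wild type replicate 2 of both polymerases nif1 no longer passed (adjusted p = 0.09 by edgeR), while coa6 and cuf1 did. All 34 lay between genes, as did 89.7% of all sites, and their surroundings of 1 kb had a median AT content of 71.95%, against 71.3% at all sites. Without wild type replicate 2 of both polymerases 23 sites rose, and 11 of the 34 no longer passed. When each library's steps were scaled by the spread of its fork polarity, 34 sites rose and 35 fell, with the median of all sites at -0.12 log2 in place of 0.03, so the excess of rises over falls holds only without that scaling.

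**Figure D2:**
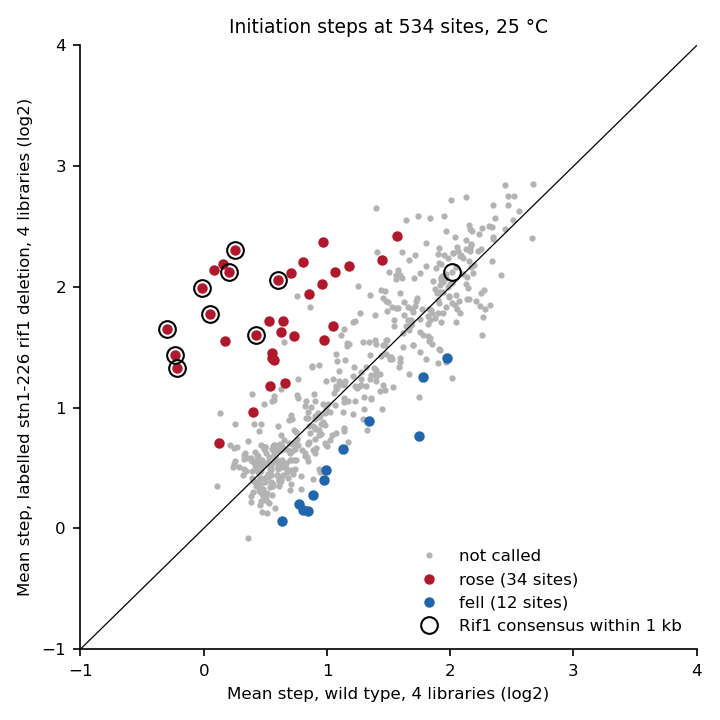
Mean step over 4 libraries labelled stn1-226 rif1 deletion (vertical axis, log2) against the mean over 4 wild type libraries (horizontal axis, log2) at 534 sites; the line marks equal steps and rings mark sites with a Rif1 consensus match within 1 kb. The 34 sites that rose (red) lie above the line at low and middle wild type steps, and the 12 that fell (blue) lie below it.

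A Rif1 consensus match lay within 1 kb of 10 sites, of which 9 rose and 0 fell, beside 6.37% rises among all sites. Their median change was 1.70 log2, against 0.03 at all sites. The exception, beside SPCC338.18, changed by 0.10 log2 (adjusted p = 0.92 by edgeR). Of the 12 largest rises 8 have a match, and those beside SPBC3B8.08, pas1, ski7 and erf2 have none in this window. A match just outside the window of the SPBC3B8.08 site, at chromosome II 3380624 to 3380634, had a step difference of 2.12 log2 between the groups. Because sites silent in wild type entered through the mutants, the change was also taken at the 57 matches themselves, also where no site was called. There the median difference was 0.51 log2 and 18 matches (31.6%) exceeded 1 log2, against a median of -0.02 and 0.531% over all 41794 bins. The step takes ends from either flank, so matches less than 6 kb apart share ends, and with 1 kept of each such cluster 14 of 46 exceeded 1 log2. Pairs of the telomere-like motif GGTTAC within 200 bp, counted on both strands, were near 9 sites, of which 4 rose: SPAC806.06C, SPAC25A8.03C, ski7 and coa6. The median change at these 9 sites was 0.53 log2.

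Falls were smaller than rises and less stable. The deepest was beside scl1, which encodes a proteasome subunit (chromosome II 957301). Its Pol delta step was 0.93 and 1.31 labelled stn1-226 rif1 deletion, against 2.12 and 1.96 in wild type. Its Pol epsilon step was 0.71 and 0.13, against 1.26 and 1.65 in wild type, so the groups were apart in both polymerases and the step fell by 0.98 log2 (SE 0.19, adjusted p = 0.002 by edgeR). The site beside rpc1, a gene for the largest RNA polymerase III subunit (chromosome II 1254901), had Pol delta steps of 0.13 and 0.26, against 1.01 and 1.30 in wild type, and fell by 0.70 log2. Both sites of chromosome II nearest to yox1 (1629301) and rpb1 (1619101) lie in the centromere, and they fell by 0.65 and 0.61 log2. Each centromere was taken as the widest gap between protein-coding genes away from the chromosome ends. The other named falls were beside his4 (-0.58), the small heat shock gene hsp16 (-0.57), bit2 (-0.57), utp21, of the U3 small nucleolar ribonucleoprotein (-0.56), glm1 (-0.52) and hel2 (-0.51). Of these 10 sites 7 lie between genes. With only the 8 compared libraries in the fit 13 sites rose and 0 fell, and without wild type replicate 2 of both polymerases 8 of the 12 fallen sites no longer passed, among them rpc1 (adjusted p = 0.12) and bit2 (adjusted p = 0.073). In the 2 like pairs the median change of the 10 largest falls was -0.49 log2 (replicate 1 against wild type replicate 2) and -0.68 log2 (replicate 2 against wild type replicate 1). These sites too were chosen by their change over the same libraries, so the values are a description.
Of the 12 fallen sites 2 lay within 20 kb of a site that rose: SPCC965.09, 8700 bp from the dpe2 site, which fell by 0.45 log2, and scl1, 8700 bp from the gap1 site. Of the 488 sites that did not pass, 28 (5.74%) lay as near. Of 23 neighbouring sites over 6 kb from one of the 12 largest rises, 1 fell, 0 rose and the median change was 0.07 log2, beside 12 falls, 34 rises and a median of 0.03 among all 534.

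The sites named for their place did not pass. At ars1 beside hus5, a well-studied early origin (chromosome I 1095901), the Pol delta step was 1.33 and 1.32 labelled stn1-226 rif1 deletion, against 1.64 and 1.48 in wild type, a change of -0.24 log2 (SE 0.17) that did not pass. Beside the telomere-linked helicase genes the changes were -0.48 log2 at tlh1 (chromosome I 6301, SE 0.17) and -0.48 and -0.03 log2 at the 2 sites by tlh2 (chromosome II 4526401 and 4521601), and none passed. The lists by place are short and are read beside the 6.37% of all sites that rose and the 2.25% that fell. On chromosomes I and II, 0 of 13 sites in the outer 50 kb passed, and of 16 sites 50 to 100 kb inward 1 rose. In the outer 100 kb of chromosome III 0 of 7 sites passed. Within 50 kb of a centromere 1 of 26 sites rose and 2 fell. Of 51 sites within 1 kb of a tRNA gene 0 rose and 2 fell, with a median change of -0.07 log2. The site nearest to ura4 (chromosome III 114301) changed by -0.43 log2 without passing, next to a gene whose coverage differs between the libraries.

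Fork polarity was taken as the log2 ratio of outbound to inbound ends, outbound meaning left by forks that run to the chromosome end and inbound by forks that run to the centromere. It was compared in 1255 blocks of 10 kb. In Pol delta 336 blocks (26.8%) passed, of which 154 (12.3%) turned toward the end and 182 (14.5%) toward the centromere. In Pol epsilon 201 blocks (16%) passed, of which 90 (7.17%) turned toward the end and 111 (8.84%) toward the centromere. The Pol epsilon count rests on 2 libraries: 89 blocks passed without replicate 1 labelled stn1-226 rif1 deletion and 120 without wild type replicate 1. With only the 8 compared libraries in the fit 133 blocks passed in Pol delta and 22 in Pol epsilon. Of the 175 blocks past the test in both polymerases, all had the same direction, and the difference between polymerases passed in 0 blocks in edgeR (64 at an unadjusted p under 0.05). The mean polarity changed sign between the groups in 134 of the 336 Pol delta blocks and 86 of the 201 Pol epsilon blocks. These blocks had passed for their change, which favours a change of sign, so the counts are a description. Of the 169 blocks within 20 kb of a site that rose, 60.9% passed in Pol delta, against 21.1% of the 1041 blocks over 20 kb from every called site. Steps and polarity are made from the same ends, so these shares are a description.

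The largest turns flank the sites of the strongest rises. Left of the SPBC3B8.08 site (chromosome II 3369901 to 3379800) the Pol delta polarity was -2.31 and -1.81 labelled stn1-226 rif1 deletion, against 2.12 and 1.15 in wild type, so the sign was opposite in every library of the 2 groups. The change was -3.71 log2 in Pol delta (SE 0.29, adjusted p = 1.7e-08 by edgeR) and -2.61 log2 in Pol epsilon. Right of the site (3379801 to 3389700) the Pol delta polarity rose by 2.57 log2. At yea4 the block on the left (chromosome II 1070101 to 1080000) rose by 2.93 log2 and that on the right fell by 2.64 log2 in Pol delta. Further blocks beside named rises lay by klp3 (chromosome I 4709101 to 4719000, 2.83 log2), mug114 (chromosome I 2649901 to 2660100, 2.55 log2) and pas1 (chromosome I 1359901 to 1370100, -3.12 log2). A block with a turn as large lay away from every rise: chromosome I 5259001 to 5269200, 52801 bp from the nearest risen site. Its Pol delta polarity was -2.19 and -3.32 labelled stn1-226 rif1 deletion, against 0.87 and 0.78 in wild type (-3.57 log2, SE 0.45, adjusted p = 4.8e-06 by edgeR). Its Pol epsilon polarity was -2.0 and -1.19, against 1.08 and -0.12 in wild type. The nearest site, beside SPAC2H10.04, is 2401 bp away. A pair of opposite blocks near pcs2 and oxa101 (chromosome I 1940101 to 1950000 and 1959901 to 1970100) changed by 2.33 and -2.59 log2 in Pol delta, around a site beside pcs2 that rose by 0.83 log2.

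**Figure D3:**
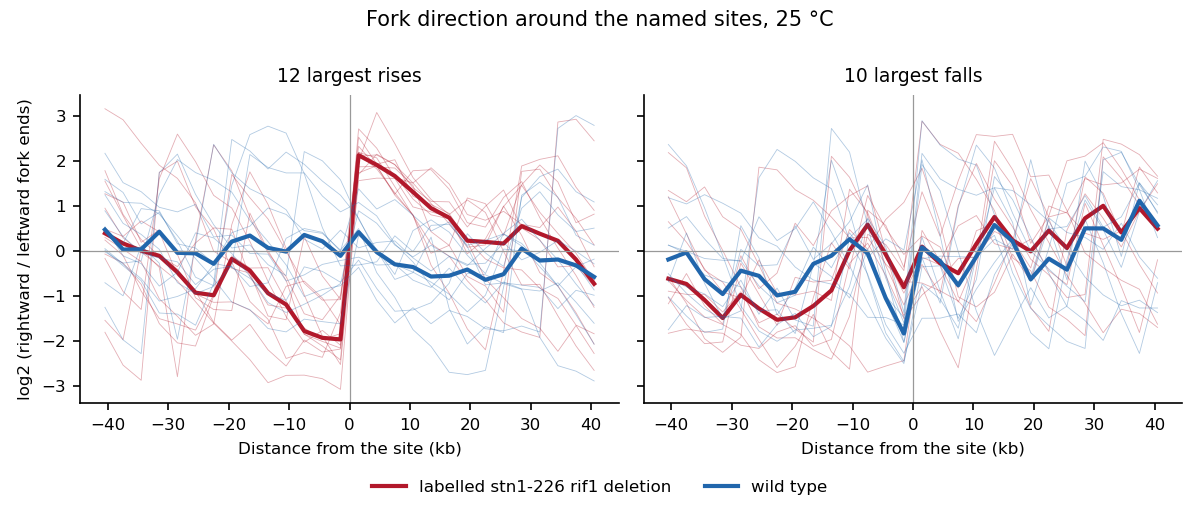
Log2 ratio of ends labelled by rightward to ends labelled by leftward forks (vertical axis, windows of 3 kb, mean of 4 libraries) by distance from the site in kb, around the 12 largest rises (left) and 10 largest falls (right), labelled stn1-226 rif1 deletion in red and wild type in blue; thin lines are sites and thick lines medians. Around the rises the red median switches between -1.98 and 2.12 at the site while the blue median stays between -0.65 and 0.47, and around the falls the blue switch at the site is larger than the red.

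Around the 12 largest rises the polarity differed on both sides of the site. The median ratio of rightward to leftward forks was -1.98 just left of the site labelled stn1-226 rif1 deletion, against -0.12 in wild type. Just right of it the ratio was 2.12, against 0.41 in wild type. The median difference between the groups was -1.47 log2 at 10.5 kb to the left and 1.84 log2 at 10.5 kb to the right. At 40.5 kb it was -0.12 log2 on the left and -0.13 log2 on the right. These profiles are centred on sites chosen for their change, so they are a description. At the chromosome ends, the outermost 10 kb of chromosome I on the left, which holds tlh1, had a Pol delta polarity of 0.67 and 0.49 labelled stn1-226 rif1 deletion, against 1.88 and 1.67 in wild type. The change was -1.19 log2 in Pol delta (adjusted p = 0.0005 by edgeR) and -0.75 log2 in Pol epsilon (adjusted p = 0.03 by edgeR), toward the centromere in both. On the right of chromosome II (4529701 to 4539804) Pol delta fell by 2.07 log2 (adjusted p = 0.025 by edgeR), while the Pol epsilon change of -0.44 log2 did not pass. The outermost 10 kb on the right of chromosome I and on the left of chromosome II did not pass in either polymerase. Further in, the block at 5529001 to 5539200 of chromosome I turned toward the end in Pol delta (0.45 log2) and Pol epsilon (0.52 log2). On the left of chromosome II the blocks at 20101 to 30000 and 39901 to 50100 turned toward the centromere in Pol delta only (-0.58 and -0.98 log2). In the outer 100 kb of chromosomes I and II, 16 of 40 blocks turned toward the centromere and 1 toward the end in Pol delta, beside 14.5% and 12.3% of all blocks. In Pol epsilon 6 of the 40 turned toward the centromere and 2 toward the end, beside 8.84% and 7.17% of all blocks.

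Total ends, both strands summed in 250 blocks of 50 kb and scaled by TMM, mostly changed in opposite directions in the 2 polymerases. In Pol delta 35 blocks rose (14%) and 51 fell (20.4%), together 34.4%. In Pol epsilon 20 rose (8%) and 41 fell (16.4%), together 24.4%. Pol epsilon gave 36 blocks without replicate 1 and 31 without replicate 2 labelled stn1-226 rif1 deletion, and 31 without wild type replicate 1. Pol delta gave 53 without wild type replicate 2 of both polymerases. With only the 8 compared libraries in the fit 37 blocks passed in Pol delta and 16 in Pol epsilon. The change in Pol delta differed from that in Pol epsilon in 128 blocks (51.2%), higher in 61 and lower in 67. Of the 43 blocks past the test in both polymerases 42 went opposite ways, beside 199 of all 250 blocks with opposite signs. Over all 250 blocks, which share libraries and base composition between neighbours, the changes had r = -0.51, given as a description. In the mean of both polymerases 1 block passed in edgeR (11 at an unadjusted p under 0.05). Other scalings shift the split: Pol delta gave 47 rises and 46 falls with RLE size factors, 53 and 49 with DESeq2, and 21 and 16 with scaling by total count. Pol epsilon gave 11 and 12 with scaling by total count, so which direction is the more frequent is not settled.

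The outermost blocks of chromosomes I and II had the largest differences between the polymerases by size, though not the lowest adjusted p. In the left 50 kb of chromosome I the Pol delta libraries labelled stn1-226 rif1 deletion held 1.58 and 1.55 times their median block, against 1.14 and 1.14 in wild type. The Pol epsilon libraries held 1.09 and 1.11 times, against 1.59 and 1.46 in wild type. The direction thus reversed between the polymerases, with changes of 0.44 log2 in Pol delta and -0.47 log2 in Pol epsilon (adjusted p of the difference 1.2e-05 by edgeR). The right end of chromosome I changed by 0.43 and -0.37 log2 and the left end of chromosome II by 0.45 and -0.34 log2 in the same order. At the right end of chromosome II Pol delta gave 0.19 log2 without passing and Pol epsilon fell by 0.82 log2. Averaged over these 4 blocks, Pol delta ends were 1.53 and 1.47 times the median block, against 1.05 and 1.28 in wild type. Pol epsilon ends were 1.07 and 1.12 times, against 1.56 and 1.65 in wild type. Groups did not overlap in either polymerase, but 2 libraries against 2 cannot go below p = 0.333 in the exact two-sided permutation test, the value reached in both. The 4 blocks 50 to 100 kb from these ends followed the same signs, with 3 rises in Pol delta and 4 falls in Pol epsilon.

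Chromosome III went the other way. In Pol delta 26 of its 49 blocks fell and 1 rose, and in Pol epsilon 13 rose and 1 fell, with median changes of -0.15 and 0.09 log2. Named examples were the blocks at 50101 to 99900 (-0.25 and 0.17 log2) and 600001 to 650100 (-0.24 and 0.20 log2). In the block at 600001 the Pol delta libraries held 1.06 and 1.03 times their median block labelled stn1-226 rif1 deletion, against 1.24 and 1.20 in wild type. On chromosomes I and II beyond the outer 100 kb, 28 blocks rose and 25 fell in Pol delta, and 7 rose and 32 fell in Pol epsilon. The outermost covered block of chromosome III on the left (15001 to 50100) held 4.46 to 34.5 times the median block and differed as much between replicates as between groups (Pol delta 22.8 and 12.6 labelled stn1-226 rif1 deletion, against 34.5 and 7.31 in wild type), so its change was not detectable.

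**Figure D4:**
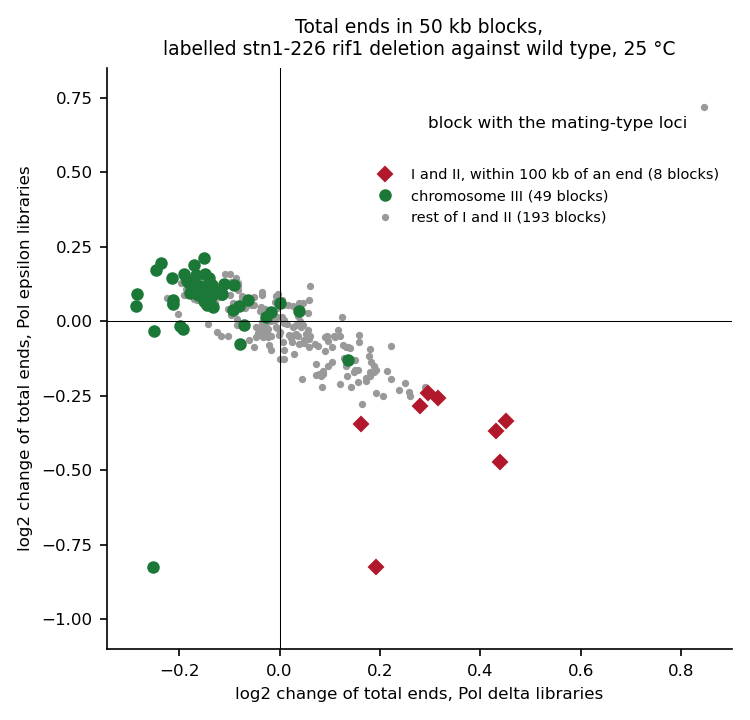
Log2 change of total ends, labelled stn1-226 rif1 deletion over wild type, in Pol epsilon (vertical axis) against Pol delta (horizontal axis) for 250 blocks of 50 kb. Blocks of the outer 100 kb of chromosomes I and II (red) lie at lower right, chromosome III (green) mostly at upper left, and 1 block of chromosome II with the mating-type loci lies at upper right.

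The block that rose in both polymerases was chromosome II 2089801 to 2139900, with 0.85 log2 in Pol delta (SE 0.13, adjusted p = 4.8e-05 by edgeR) and 0.72 log2 in Pol epsilon (adjusted p = 0.00043 by edgeR). It contains the mating-type loci mat1, which is expressed, and mat3, a silent cassette in heterochromatin. Genes of mat2, the other silent cassette, were searched by symbol and not found in the annotation of the assembly. Between mat1 and mat3 (2115301 to 2132400, 57 bins) the median bin of the Pol delta libraries was 3.62 and 3.67 times the library median labelled stn1-226 rif1 deletion, against 1.06 and 1.22 in wild type. In Pol epsilon it was 2.63 and 3.27 times, against 0.88 and 0.96 in wild type. The flank of equal length on the left held 0.989 to 1.10 times labelled stn1-226 rif1 deletion and 0.934 to 1.18 in wild type, so the left flank stayed within the wild type range. The right flank held 0.767 to 1.0 times labelled stn1-226 rif1 deletion and 0.734 to 0.919 in wild type. Just past mat3, at 18.75 kb from mat1, the groups overlapped in Pol delta (1.06 and 0.95, against 0.97 and 1.51 in wild type). Further out, at 20.25 kb, the Pol delta libraries labelled stn1-226 rif1 deletion held 2.04 and 2.33 times, against 0.84 and 1.03 in wild type. The Pol epsilon libraries held 1.36 and 1.27 there, against 0.76 and 0.73 in wild type. The 4 libraries of stn1-226 at 25 °C, whose labels give the same background as those of stn1-226 rif1 deletion, held 2.33 to 3.36 times, and the 4 of rif1 deletion at 25 °C held 0.929 to 1.18. The labels state h- for wild type and no mating type for the other strains, and background, mating type and genotype cannot be told apart here. The initiation step at the nearest site, inside this interval (chromosome II 2117701), changed by -0.29 log2 (adjusted p = 0.86 by edgeR).

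**Figure D5:**
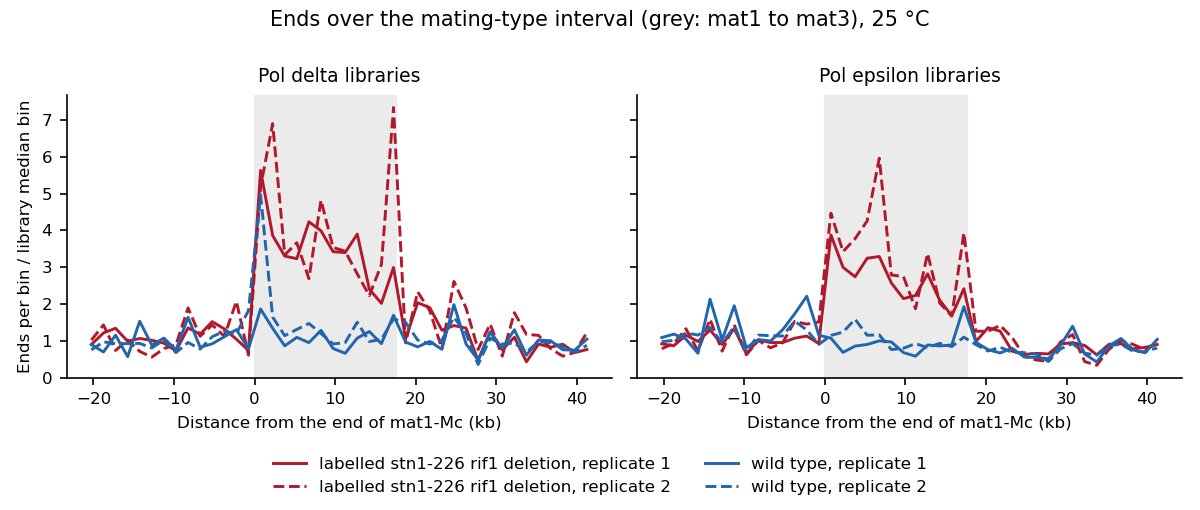
Ends per bin divided by the library's median bin (vertical axis, medians of 5 bins) by distance in kb from the end of mat1-Mc, for each Pol delta (left) and Pol epsilon (right) library; the grey band marks mat1 to mat3. Within the band all 4 libraries labelled stn1-226 rif1 deletion (red) run above the wild type libraries (blue), whose median there is 0.88 to 1.22. Beyond mat3 the red lines are also above the blue at 20.25 and 21.75 kb, but at 18.75 kb the groups overlap in Pol delta.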

How the data were processed

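Per the labels' protocols, alkali-cleaved DNA was selected by size and sequenced. Per the submitters' processing notes, reads were aligned with Bowtie2. Neither its version nor a genome build is given in the sources used here. The deposited values were raw counts of fragment ends in 300 bp bins, each strand in a file of its own, per the file headers and names. Replicates were deposited separately. Bins were placed on ASM294v3, whose chromosome lengths they match; on chromosome III files with 8084 bins start at 15001, and bins past the end of chromosome II were left out.

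Steps, polarity and totals were computed with Python 3.11.15, numpy 2.4.6 and pandas 2.3.3. Sites were local maxima over 10 bins of the mean step above 20% of its percentile 99. The quasi-likelihood test of edgeR 4.0.16 (R 4.3.3) was run on the counts of 32 libraries (16 residual degrees of freedom), with the library as a block for steps and polarity, Benjamini-Hochberg adjustment over all sites or blocks and a threshold of 0.05. Features under 10 ends on average were left out. DESeq2 1.42.0 and other settings served as alternatives. Scripts were tested on simulated counts. Per-library steps are log2 values with 1 end added to each side. Sites were named by rank of change: the 12 largest rises and 10 largest falls, up to 5 blocks per direction and polymerase, and fixed places. The members, lists and named sites were chosen with earlier results of these data known. The 4 taz1 deletion libraries were not used. The sequence at 1 named site is not reported here.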

Additional observations from a re-analysis of the deposited data

Results flagged for a closer look

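Total ends answered differently in the 2 polymerases. The change in Pol delta differed from that in Pol epsilon in 128 of 250 blocks by the interaction test of edgeR with Benjamini-Hochberg adjustment, 61 with the higher change in Pol delta and 67 with the lower. Leaving out single libraries gave 103 to 123 blocks. The spread over blocks of the log2 ratio of Pol delta to Pol epsilon ends, terminal blocks left out, was 0.139 and 0.245 (SD over blocks) in the 2 replicates labelled stn1-226 rif1 deletion, against 0.256 and 0.228 in wild type, so replicate 1 labelled stn1-226 rif1 deletion had the narrowest. The log2 ratio of Pol delta to Pol epsilon ends was also taken in wild type at 34 °C. Across blocks it had r = -0.72 with the difference between the polymerases in change. No library is shared, but wild type enters both quantities, so they are not independent. Neighbouring blocks are not independent either, and this is a description.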

How the results depend on the processing

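The replicate block moved no count by over 1.5 times (36, 2 and 51 sites for Pol delta, Pol epsilon and their mean). Same-numbered libraries deviated in opposite directions (r = -0.60 for Pol delta and -0.50 for Pol epsilon), and with the crossed pairing, chosen after seeing the data, 43, 11 and 52 sites passed. With only the 8 libraries compared, 6 sites passed in Pol delta, 0 in Pol epsilon and 13 in the mean; 133 and 22 blocks passed for polarity and 37 and 16 for total ends. A flank of 5 bins gave 19, 0 and 30 sites. Sites called in wild type only gave 23, 0 and 37. Scaling by polarity gave 61 sites in Pol delta and 17 in Pol epsilon. DESeq2 gave 14 in Pol epsilon. Without wild type replicate 2 of both polymerases the counts were 8 sites in Pol epsilon and 28 in the mean, and 53 blocks for total ends in Pol delta. Polarity in blocks of 50 kb gave 73 and 49 of 250 blocks, total count scaling gave 37 and 23 blocks for total ends, and the difference between polymerases in total ends passed in 269 of 1255 blocks of 10 kb. Leaving out each library in turn gave 24 to 35 (Pol delta), 0 to 8 (Pol epsilon), 34 to 49 (mean) and 0 to 1 (difference) sites, 285 to 341 and 89 to 223 blocks for polarity, and 61 to 90, 31 to 71 and 103 to 123 blocks for total ends. For Pol epsilon total ends the lowest counts came without wild type replicate 1 (31), replicate 1 (36) and replicate 2 (31) labelled stn1-226 rif1 deletion. The terminal difference ran from 0.224 to 0.447 in Pol delta and from -0.552 to -0.463 in Pol epsilon. Fewer libraries, sites or blocks account for part of the lower counts by construction; otherwise the cause was not tested. The least deep library, a Pol delta library, had a median bin of 39 ends; without it Pol delta gave 26 sites, 303 blocks for polarity and 67 for total ends.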
